A study of Rattus norvegicus with 2 samples.

Results

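Actin, tropomyosin and myosin genes encode the filaments and motors that give cultured keratinocytes their shape, their stress fibres and their grip on the dish. The members were the gene symbols of the array's probe annotation that belong to the actin, actinin, actin-related protein, Arp2/3 subunit, tropomyosin, myosin, cofilin, capping protein and profilin families. This rule uses names and no measured value, and it found 74 of 15037 named genes, read by 77 of 15049 named probe sets. A gene without a named probe set was not analysed here. RNA levels were read with whole-transcript arrays in epidermal keratinocytes cultured from newborn rats, in medium with 10% serum and 0.4 µg/mL hydrocortisone. There was 1 array of control cells and 1 array of siTet2/3 cells, which had been transfected with 1 µM each of siRNAs against Tet2 and Tet3, enzymes that oxidise methylated cytosine as a step towards its removal from DNA. Vitamin C was added to both cultures 24 h after transfection and left for 12 h, so its own effect was not compared. The sample title names the control cells as NC. The labels do not say how many animals gave the cells, or whether the control cells received another siRNA.

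With a single array on each side there was no replicate check and no test, and a gene called higher or lower was so on these 2 arrays. Values are log2 signals as deposited, and differences are siTet2/3 minus control. A gene was counted as above background where the higher of its 2 values passed a floor of 5.04 log2 units, the 95th percentile of that value over 1206 chemoreceptor genes, taken as a gauge of background. The size of the knockdown was not analysed here, because Tet2 and Tet3 had no named probe set. All 7 keratinocyte markers on the array lay above the floor, among them the desmosomal cadherin gene Dsg3 (15.06 log2 units in control and 15.08 in siTet2/3 cells, the order kept below) and the integrin gene Itga6 (14.85 and 14.72). The markers differed both ways, with 3 over 0 and 4 under 0, from 2.48 in the basal keratin gene Krt15 (8.78 and 11.26) to -0.45 in the spinous keratin gene Krt1 (7.07 and 6.63). None of 6 smooth muscle and pericyte markers and none of 7 skeletal muscle markers passed it. Of the other lists, 1 of 8 fibroblast markers (Vim, 8.81 and 8.73), 1 of 5 melanocyte markers (Mitf, 5.33 and 5.41), 1 of 5 endothelial markers (Tek, 9.66 and 9.25) and 1 of 6 immune markers (Cd68, 5.52 and 5.24) did.

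As background, actin monomers assemble into polar filaments. The Arp2/3 complex starts branches on them, profilins load monomers, capping proteins close the growing end and cofilins cut old filaments. Tropomyosins lie along the filament and set which motors may walk on it, actinins bundle filaments, and myosins pull on them or carry cargo. In keratinocytes this system drives spreading, migration over a wound and the contraction of cell borders.

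Most of this system read nearly the same on both arrays. Of the 74 members, 46 lay above the floor, and 3 of these differed by at least 1.5-fold, which is 6.52%. Among all 8103 named genes above the floor the share was 21.8%. By direction, 2 members were higher on the siTet2/3 array, against 8.63% of all genes, and 1 was lower, against 13.2%. The median difference of the 46 members was 0.03 log2 units, with 25 over 0, 20 under 0 and 1 at 0. The member at 0 was Actb, at the highest deposited value on both arrays, where a difference could not show. The median over all genes above the floor was -0.05. The median size of the difference, whatever its sign, was 0.19 for the members and 0.31 for all genes, and 28 of the 46 members lay within 0.25 log2 units of 0. In RNA of a whole culture, fewer cells of a type and less RNA per cell cannot be told apart.

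The members past 1.5-fold were all unconventional myosins with low signals. They were 3 of the 9 genes of that family above the floor (33.3%), beside 21.8% of all genes. At low signals the share of all genes was 27.2% between the floor and 8 and 20.5% at 8 to 10. Myo18a, which encodes a myosin of class XVIII, read 7.33 in control and 8.23 in siTet2/3 cells, or 1.88-fold higher. Myo9b, a class IX myosin gene, read 5.82 and 4.84. The siTet2/3 value is below the floor, so Myo9b was at least 1.72-fold lower. Myo1a, a class I myosin of intestinal microvilli, read 4.69 and 5.28, below the floor on the control array, and was at least 1.19-fold higher. Only Myo18a was therefore measured above the floor on both arrays and past 1.5-fold, as 1 of 44 such members, where the share of all genes was 18.9%. All 3 genes lay below 8.31 log2 units, a stricter floor taken from the 1153 negative-control probes. Above that stricter floor stood 38 members, of which 0 were past 1.5-fold, beside 17.0% of all genes.

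**Figure D1:**
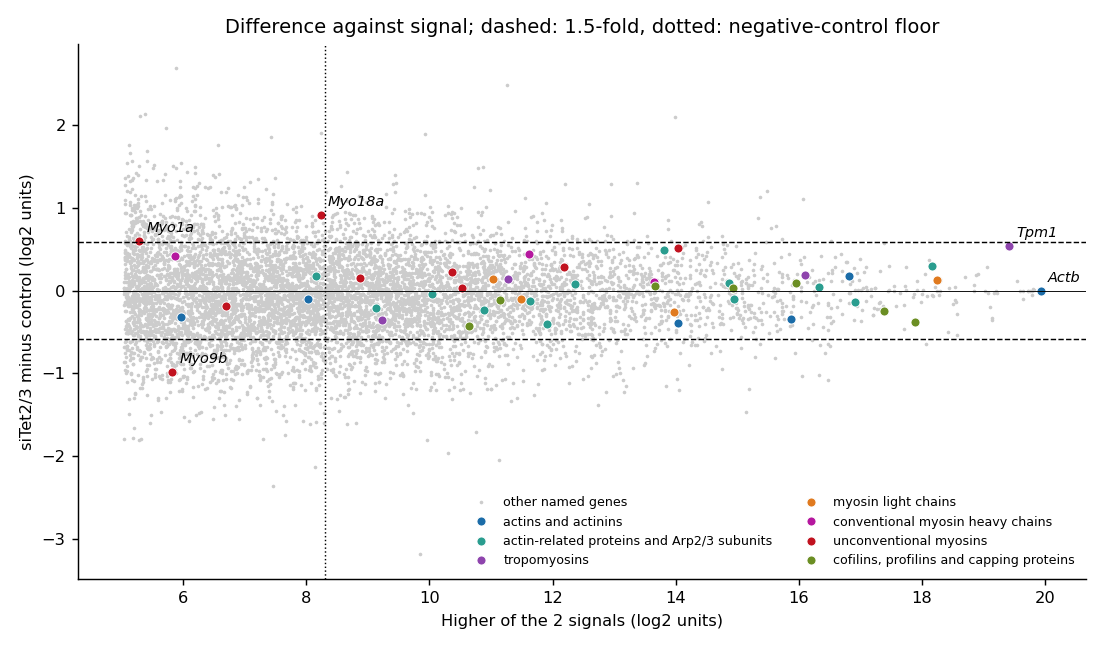
Difference between the arrays (siTet2/3 minus control, log2 units) against the higher of the 2 signals (log2 units) for named genes above the floor, with members coloured by family. Dashed lines mark 1.5-fold and the dotted line the negative-control floor; Myo18a, Myo1a and Myo9b are the members outside the dashed lines, and each lies left of the dotted line.

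Differences between the arrays narrowed as signals rose. Among all genes the share past 1.5-fold fell from 27.2% at signals between the floor and 8 to 20.5% at 8 to 10, 17.5% at 10 to 12, 14.0% at 12 to 14 and 9.63% at 14 and over. The members lay mostly in the upper range, with 17 of 46 at 14 and over. Weighting the shares of all genes by the members' levels gave 15.6%, or 7.17 genes, where 3 were counted. Of the 35 members with a signal of 10 or over, 0 were past 1.5-fold, beside 15.0% of all genes at that level. These 35 include Actb, which could not show a difference. The largest difference among those 35 was 0.54 log2 units. The median size of the difference between the floor and 8 was 0.41 for 5 members, larger than the 0.36 for all genes. It was smaller for the members at the higher levels, with 0.19 for 6 members and 0.30 for all genes at 8 to 10, and 0.14 for 12 members and 0.28 for all genes at 10 to 12. At 12 to 14 it was 0.18 for 6 members and 0.24 for all genes, and at 14 and over 0.17 for 17 members and 0.20 for all genes.

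**Figure D2:**
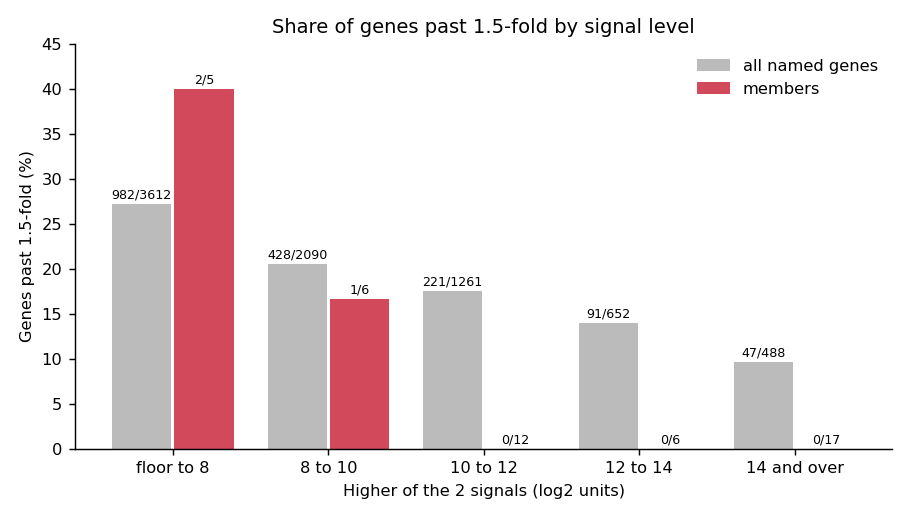
Percentage of genes past 1.5-fold, in either direction, by the higher of the 2 signals (log2 units), for all named genes (grey) and the members (red), with counts above the bars. Members past 1.5-fold appear only in the lowest 2 groups, with 2 of 5 and 1 of 6.

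Most of the members below background were muscle or testis isoforms. The 28 members below the floor read between 2.28 and 5.00 log2 units. They included the skeletal and cardiac actins, the sarcomeric actinins and the muscle myosin heavy chains, which build the contractile unit of striated muscle. Of 15 genes on a list of their sarcomere partners, only the slow troponin C gene Tnnc1 passed the floor (5.49 and 5.74). Differences past 1.5-fold were measured in 5 of the 28, of which 4 were higher and 1 was lower. That is 17.9%, near the 23.1% of all 6934 named genes below the floor (14.2% higher and 8.94% lower). Values under the floor have no order, so no fold is given for them.

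**Figure D3:**
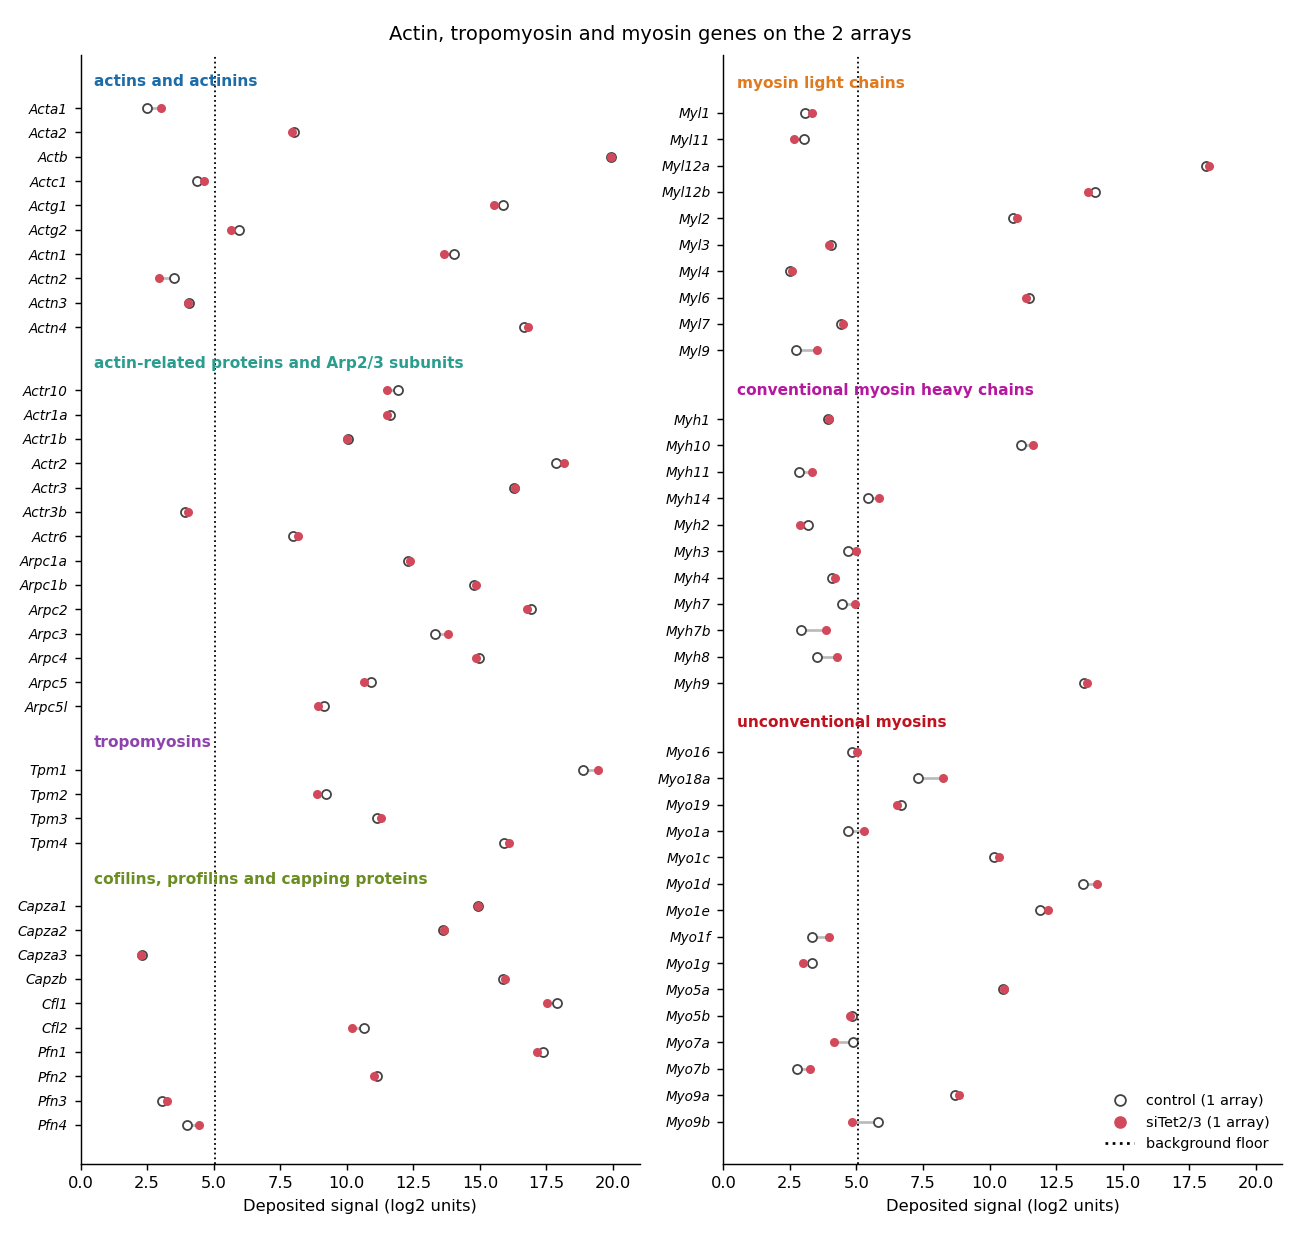
Signal of each of the 74 members on the control array (open circles) and the siTet2/3 array (red points), in log2 units, by family, with the background floor as a dotted line. The distance between paired points is small against the range of signals, and most muscle isoforms lie left of the line.

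Annotated start sites of the members were compared in RefSeq windows of 300 bases (250 before and 50 after the start, build GRCr8), which were found for 66 of the 74 members, at 71 starts. No methylation was measured here; the CG dinucleotide is shown because it is where TET enzymes act. Starts of members above the floor held a median of 23 CG dinucleotides (45 starts, range 0 to 50), and those of members below it a median of 5 (26 starts, range 1 to 47). The medians were 22 and 6 for starts of all named genes above and below the floor, so the members resembled other genes in this respect. The motif TATAAA, searched on both strands, was in 1 of the 45 starts of members above the floor (2.22%) and in 7 of the 26 below it (26.9%), beside 6.95% and 17.4% for all named genes and 14.2% of all windows of that length in the table. A CArG box, the site bound by serum response factor, was in 6 of the 71 starts (8.45%), beside 1.31% of starts of named genes and 1.64% of all windows. It was in 2 of the 45 starts of members above the floor (4.44%) and 4 of the 26 below it (15.4%). The shares for all named genes were 1.24% and 1.39%. Actb was among the members without a window. The CArG motif reads the same on both strands. A match is a description of the letters and not evidence of binding.

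**Figure D4:**
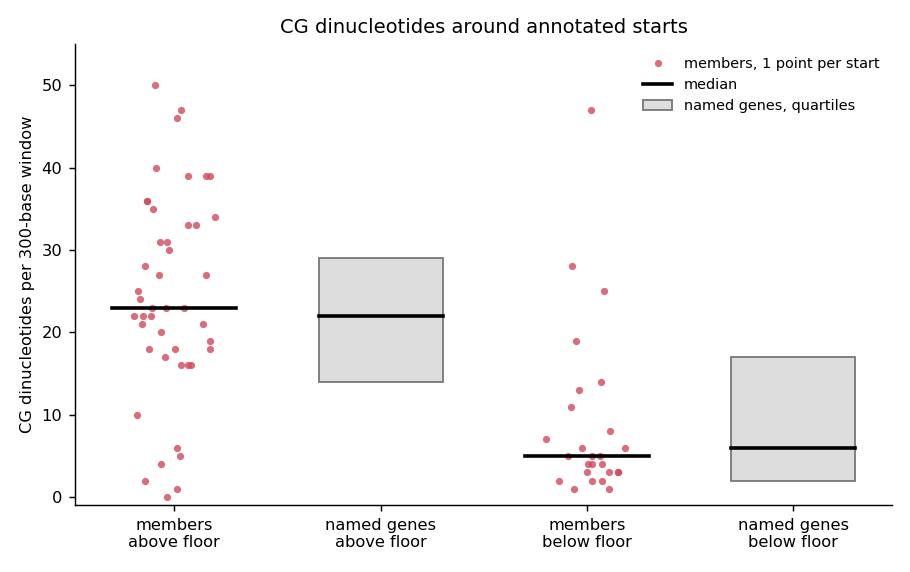
Number of CG dinucleotides per 300-base window around annotated starts, for members above and below the floor (red points, 1 per start, with medians as bars) and for named genes (grey boxes, quartiles with medians). Members above the floor centre on 23 and those below on 5.

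The CArG boxes before the start are shown because they were found both in genes that read above the floor and in muscle genes that were not above background. Each stretch is 50 bases, 5′ to 3′ on the strand of the gene, with the box in capitals. Actg1 (chr10:106121012-106121061, minus strand) and Myo1e (chr8:79768712-79768761, plus strand) lay above the floor. Acta1 (chr19:68784259-68784308, minus strand), Myh4 (chr10:52422010-52422059, plus strand) and Myl3 (chr8:119616977-119617026, plus strand) did not. The sixth box, in Actc1, lay after the start and is not printed.
Actg1: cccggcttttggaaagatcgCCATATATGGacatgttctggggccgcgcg
Myo1e: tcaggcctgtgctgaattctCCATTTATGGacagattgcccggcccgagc
Acta1: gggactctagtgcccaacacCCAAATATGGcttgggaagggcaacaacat
Myh4: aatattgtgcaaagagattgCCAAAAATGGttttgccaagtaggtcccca
Myl3: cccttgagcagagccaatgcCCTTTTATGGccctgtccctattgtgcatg

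The 150 bases before the start are shown for the members above the floor with the largest differences in each direction, and for 1 muscle gene below the floor, with each CG in capitals. Myo18a (chr10:63152214-63152363, plus strand) held 24 in this stretch, Myo9b (chr16:17979289-17979438, plus strand) 19 and the fast skeletal heavy chain gene Myh4 (chr10:52421998-52422147, plus strand) 1. Myo18a and Myo9b differed in opposite directions, and whether CG dinucleotides bear on these differences was not tested.
Myo18a: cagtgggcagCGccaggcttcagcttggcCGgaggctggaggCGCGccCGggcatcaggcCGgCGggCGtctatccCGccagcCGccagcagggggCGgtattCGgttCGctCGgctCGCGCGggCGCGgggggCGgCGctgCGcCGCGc
Myo9b: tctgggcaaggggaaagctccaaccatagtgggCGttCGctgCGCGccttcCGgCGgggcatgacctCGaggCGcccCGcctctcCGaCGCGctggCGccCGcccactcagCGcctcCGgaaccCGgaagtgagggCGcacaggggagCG
Myh4: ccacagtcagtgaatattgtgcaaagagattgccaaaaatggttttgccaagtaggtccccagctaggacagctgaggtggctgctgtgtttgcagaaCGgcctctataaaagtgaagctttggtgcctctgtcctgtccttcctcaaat

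Among the actins, the cytoplasmic actin gene Actb stood at the top of the deposited scale, at 19.93 log2 units on both arrays, where the values end. A difference in Actb could not show there, and its value of 0 is not a measurement of no change. The other cytoplasmic actin gene, Actg1, read 15.88 in control and 15.53 in siTet2/3 cells, a difference of -0.35. Its only probe set carries an identifier marked as unmapped, and the coding sequences of the actins are so alike that cross-hybridisation between them was not tested. The smooth muscle actin gene Acta2 read 8.03 and 7.93, and Actg2, the enteric smooth muscle actin gene, 5.96 and 5.64. Acta1 and Actc1, the skeletal and cardiac actin genes, were below the floor on both arrays. Of the actinin genes, Actn1 read 14.03 and 13.65 and Actn4, the other non-muscle actinin, 16.65 and 16.82, while the sarcomeric Actn2 and Actn3 were below the floor. The median of the 6 actin and actinin genes above the floor was -0.21. It fell between the differences of Acta2 and Actg2, which both lay below the stricter floor of 8.31 log2 units. The median moved to -0.32 without Actb and to -0.10 with a floor 1 log2 unit higher, which leaves out Actg2.

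Genes for every subunit of the Arp2/3 complex lay above the floor. Its actin-related subunits are encoded by Actr2, which read 17.86 and 18.16, and Actr3, which read 16.29 and 16.33. The isoform gene Actr3b was below the floor. The scaffold subunit gene Arpc2 read 16.91 and 16.77, Arpc4 14.95 and 14.85, and Arpc3 13.32 and 13.81. Arpc3 had the largest difference in the complex, 0.49, or 1.40-fold higher. The alternative subunit genes Arpc1a and Arpc1b read 12.28 and 12.36, and 14.76 and 14.86, with differences of 0.08 and 0.10. The interchangeable subunit genes Arpc5 (10.89 and 10.66) and Arpc5l (9.13 and 8.93) both lay under 0, at -0.23 and -0.21.

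Other actin-related proteins have roles outside branching. Actr1a (11.63 and 11.50), Actr1b (10.04 and 10.00) and Actr10 (11.91 and 11.50) belong to dynactin, the partner of the dynein motor on microtubules, and Actr6 (7.98 and 8.15) to a nuclear chromatin remodelling complex. Actr10 was the furthest from 0 of these, at -0.41. The median over the 13 actin-related and Arp2/3 genes above the floor was -0.04, with 6 over 0 and 7 under 0. Of these, 0 of 13 were past 1.5-fold, beside 21.8% of all genes.

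All 4 tropomyosin genes lay above the floor. Tpm1 read 18.88 in control and 19.42 in siTet2/3 cells. At 1.45-fold higher, Tpm1 had the largest difference among members with a signal of 10 or over, and it passed 1.5-fold after the values were centred on the median difference of all genes. Its siTet2/3 value lies 0.51 log2 units below the top of the scale. Tpm4, another tropomyosin of non-muscle cells, read 15.92 and 16.11. Tpm3 was read by 3 probe sets at very different signals, 16.26 and 16.33, 11.37 and 11.55, and 5.78 and 5.95, but their differences were alike at 0.07, 0.18 and 0.17. Tpm2, known from muscle, was read by 2 probe sets that differed more from each other, with 10.17 and 10.02 in one (-0.15) and 8.30 and 7.75 in the other (-0.55). The probe set with the larger difference and the lower 2 of Tpm3 carry identifiers marked as unmapped. By the mean over probe sets Tpm2 differed by -0.35, opposite in sign to the other tropomyosins.

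Non-muscle myosin II consists of heavy chains, essential light chains and regulatory light chains. Its heavy chain genes were the 3 conventional heavy chain genes above the floor, and all 3 were over 0, where 3611 of all 8103 genes were. Myh9 read 13.54 and 13.64. Myh10 read 11.18 and 11.61, or 1.35-fold higher, and Myh14 5.44 and 5.86, or 1.33-fold higher but close to the floor. The smooth muscle heavy chain gene Myh11 was below the floor, as were the 7 other heavy chain genes.

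Of the light chains, the regulatory chain genes Myl12a and Myl12b went opposite ways by small amounts, at 18.13 and 18.25 (0.12) and at 13.97 and 13.71 (-0.26). They are near-identical neighbours, and how far probe sets tell them apart was not tested. The essential chain gene Myl6 read 11.49 and 11.39. Myl2, the regulatory chain of heart ventricle and slow muscle, read 10.89 and 11.03, well above the floor, while the skeletal muscle markers were all below it. The regulatory chain gene Myl9, which acts in smooth muscle and non-muscle cells, was below the floor at 2.74 and 3.52. Myl1, Myl3, Myl4, Myl7 and Myl11, which are muscle light chains, were below it too. None of the 4 light chain genes above the floor was past 1.5-fold, beside 21.8% of all genes.

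The unconventional myosins showed the widest spread of the families, from -0.98 in Myo9b to 0.91 in Myo18a. Of 15 genes 9 were above the floor, 7 of them over 0, and their median difference was 0.22. Of the class I motors, which tie membranes to actin, Myo1d read 13.52 and 14.03, or 1.43-fold higher, Myo1e 11.91 and 12.19, and Myo1c 10.15 and 10.37. The vesicle motor gene Myo5a read 10.50 and 10.52. Myo9a, the relative of Myo9b in the same class, read 8.72 and 8.87, a difference of 0.15, where Myo9b was at least 1.72-fold lower. Myo19, a motor of mitochondria, read 6.69 and 6.50. Myo16, Myo1f, Myo1g, Myo5b, Myo7a and Myo7b were below the floor.

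None of the 7 cofilin, profilin and capping protein genes above the floor was past 1.5-fold, beside 21.8% of all genes. Cfl1, the non-muscle cofilin gene, read 17.89 and 17.51, or 1.30-fold lower. Cfl2, the muscle cofilin gene, read 10.64 and 10.21, or 1.35-fold lower. The profilin genes Pfn1 (17.38 and 17.14) and Pfn2 (11.14 and 11.03) were also under 0. In contrast, the capping protein genes Capza1 (14.91 and 14.94), Capza2 (13.61 and 13.66) and Capzb (15.87 and 15.96) differed by at most 0.09. Their testis relatives Capza3, Pfn3 and Pfn4 were below the floor. The median over the 7 genes above it was -0.11.

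Lists of other genes that control actin were compared in the same way. Each gene counted once, 122 of 154 listed genes were on the array, 77 were above the floor, and 9 of these (11.7%) were past 1.5-fold, 3 higher and 6 lower, beside the 21.8% of all genes. Of 19 genes of filament nucleation and elongation, 0 were past 1.5-fold, and the median was 0.02. The largest difference was 0.572, in Arpin, which encodes an Arp2/3 inhibitor (7.57 and 8.15). Both values of Arpin lay below the stricter floor of 8.31 log2 units. Cyfip1 (11.17 and 11.74), on the same list, differed by nearly as much, 0.571. Of 22 genes of severing, capping and monomer binding, Twf2, which encodes a twinfilin, was 1.59-fold lower (6.23 and 5.57). Both values of Twf2 lay below the stricter floor of 8.31 log2 units. The monomer-binding thymosin gene Tmsb10 read 19.80 and 19.81, near the top of the scale.

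Genes that link actin to membranes and adhesions went both ways. Of 24 above the floor, 2 were higher and 2 lower by at least 1.5-fold. That is 16.7%, beside the 21.8% of all genes. The adhesion gene Tln1, which encodes the integrin-binding talin, was 1.99-fold lower (6.88 and 5.89), with both values below the stricter floor of 8.31 log2 units. Tagln2, a transgelin gene, was 1.75-fold lower (15.29 and 14.49). Cald1, which encodes the actin and tropomyosin binder caldesmon, was 1.67-fold higher (13.15 and 13.88), and Nf2, which encodes merlin, 1.52-fold higher (9.34 and 9.94). Among 15 regulators and targets of serum response factor outside the member families, 3 were lower and 1 was higher, and the median was -0.36, with a mean of -0.23. The 26.7% past 1.5-fold on this list lay near the 21.8% of all genes. The lower ones were Fosl1 (1.95-fold), Ccn2 (1.67-fold) and Egr1 (1.63-fold), and the matrix gene Thbs1 was 2.18-fold higher. Srf, the factor's own gene, read 7.38 and 6.89, a difference of -0.50, or 1.41-fold, which is short of 1.5-fold. Both values of Srf lay below the stricter floor of 8.31 log2 units. Above the floor, the last 2 lists share Flna, Vcl, Zyx and Pdlim7.

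**Figure D5:**
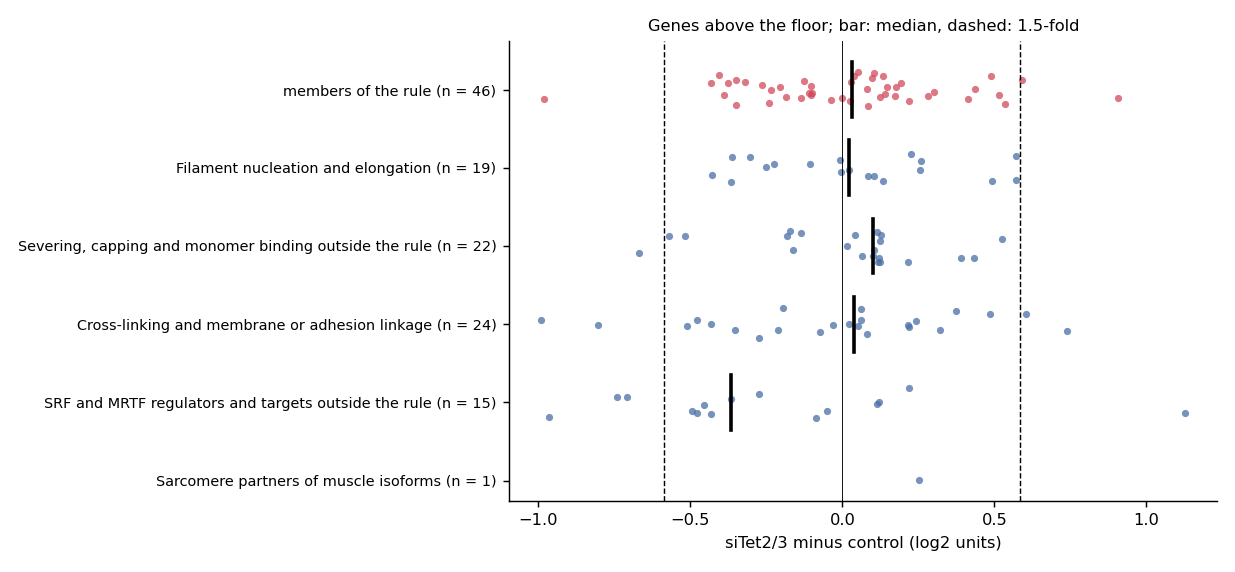
Difference between the arrays (siTet2/3 minus control, log2 units) for genes above the floor, 1 point per gene, with medians as black bars for lists of 5 or more and 1.5-fold as dashed lines. The 46 members centre on 0.03 and the 15 serum response factor genes on -0.36.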

How the data were processed

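The authors deposited a log2 signal for each probe set and array, made with RMA and the Transcriptome Analysis Console per the submitters' processing notes, which give no versions. Build and settings: not given in the sources used here. Deposited values ended at 19.93 log2 units. Whether this scale is plain RMA or was transformed or capped afterwards was not established here. Folds are those of the deposited scale. Symbols came from the platform annotation; all 74 member identifiers were in the RefSeq table of GRCr8. Probe sets of a gene were averaged (72 members had 1). Signals of different genes are not compared, since probes differ in response. Array data scaled this way do not show total RNA per cell.

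Calculations used Python 3.11.15, pandas 2.3.3 and limma 3.58.1 (loessFit). Members and lists were chosen with earlier results of these data known. Every member above the floor is given; for each other list, up to 3 genes past 1.5-fold per direction, or the largest difference, were named (1 list of regulators is not reported here), and others were chosen after their values were seen. Chemoreceptors included current Or symbols beside the older Olr symbols; the older symbols alone (182 genes) gave a floor of 5.23 log2 units. The counting was checked on simulated data with changes larger than the limit and little noise, in genes well above the floor. That check covers the counting alone and cannot speak to calls near the limit or the floor. Fold bounds are the brighter value over the floor. Family medians need 5 genes above the floor. Alternatives were other floors, centring, trend removal (span 0.3), the brightest probe set, values raised to the floor, genes near the top left out, a 2-fold limit, means, and, added later, the older chemoreceptor symbols and the removal of unmapped probe sets.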

Additional observations from a re-analysis of the deposited data

How the results depend on the processing

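The count of members past 1.5-fold, 2 higher and 1 lower, became 6 and 2 of 74 with no floor, 1 and 0 with a floor 1 log2 unit higher or with both values above the floor, 0 and 0 with the negative-control floor or a 2-fold limit, and 1 higher after trend removal or with values raised to the floor. Centring gave 3 and 1, adding Tpm1. Myo1a fell short of 1.5-fold after trend removal (0.53) and with values raised to the floor (0.25). The members' share past 1.5-fold lay below that of all genes in each setting run. The median of the members above the floor stayed within 0.1 log2 units of 0.03 in each. The actin and actinin median of -0.21 became -0.066 with no floor, -0.10 with a floor 1 log2 unit higher or without unmapped probe sets (which removes Actg1), and -0.32 without genes near the top; that of cofilins, profilins and capping proteins became 0.0078 with no floor. For the other lists, 3 higher and 6 lower became 7 and 13 with no floor and 1 and 0 at 2-fold. They became 3 and 4 with the negative-control floor, which leaves out Tln1 and Twf2 among the lower ones. The higher count was 5 after centring or trend removal. The serum response factor list had a mean of -0.23. The cause of these shifts was not tested. No paired analysis was possible because each group had 1 array. The number of arrays limits the precision of every value.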

Other observations

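Actb was 1 of 7 genes at the highest deposited value on both arrays, which is 999952 on the linear scale. Of 23 genes at 19 log2 units or over on both arrays, 14 had the same value on both, as against 20 of the 8080 other genes above the floor.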
